A study of Mus musculus with 12 samples.

Results

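The later transcriptional response of macrophages to fenoterol was measured by comparing 4 libraries of cells treated for 4 h with 4 libraries of untreated cells. These 8 libraries were chosen by their column labels out of 12 in the series, which also holds 4 libraries of cells treated for 1 h. The cells were bone marrow-derived macrophages (BMDMs) of 4 C57Bl/6J mice, grown for 1 week in medium that held 20% L929 cell conditioned medium, a source of the growth factor M-CSF. Each mouse gave 1 untreated well, 1 well treated for 1 h and 1 treated for 4 h, both with fenoterol at 1 μM, and the drug was added to the culture without a change of medium. Each library therefore stands for the cells of 1 mouse, and the same 4 mice are in every group. The libraries of 1 h were included in the statistical fit, and their values are otherwise used below mainly to show when a gene moved.

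Fenoterol is a beta-adrenergic agonist. Beta-adrenergic signals, by which macrophages sense norepinephrine, run through the stimulatory G protein Gs, which makes adenylyl cyclases produce cAMP. cAMP activates protein kinase A (PKA), and PKA phosphorylates the transcription factor CREB, which binds cAMP-responsive elements (CREs) in promoters and starts a first wave of transcription. Proteins of that first wave, among them transcription factors, phosphatases and phosphodiesterases, can then shape later changes in RNA.

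Untreated libraries held 14580533 to 22580692 counts in all and those of 4 h 18446470 to 24153284. Macrophage markers were high in every library, with summed normalized counts of 8 markers from 749000 to 785400 in untreated cells and from 701500 to 788900 at 4 h. Most of this sum was *Lyz2*, and it hides changes of single markers, as *Cd14* rose from 12816 to 73277 and *Mertk* fell from 3856 to 1351. *Adgre1* (F4/80) had 89939 normalized counts without treatment and 77539 at 4 h, *Csf1r* (the M-CSF receptor; genes on the other strand share 15.1% of its exon sequence and were assigned 8820 counts) 120170.0 and 100203, and *Lyz2* (lysozyme) 488584 and 429910.0. Of the markers listed for neutrophils (9), T cells (5), B cells (5), dendritic cells (6), mast cells and basophils (5), fibroblasts (6), erythroid cells (4) and osteoclasts (4), 44 in all, 15 had enough counts to be tested and 0 were called at 4 h. Of the 8 macrophage markers, 3 were called higher and 4 lower, but the call of *Csf1r* was lost in 7 of 17 alternative fits and that of *Adgre1* in 3, and *Lyz2* was called lower in 3 of the 17, including the fit with the mouse as a block. The summed normalized counts of the lists for other cell types overlapped between the groups, and each of these lists summed to at most 1305 in any untreated or 4 h library, with the erythroid markers at 0 throughout. *Cd8a* (T cells), *Lum* (fibroblasts) and *Calcr* (osteoclasts) were also at 0 in all libraries.

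Of 12386 genes tested with edgeR's quasi-likelihood test, 4958 (40.0%) passed an adjusted p under 0.05 between 4 h and untreated BMDMs. Of these, 2437 (19.7%) were higher at 4 h and 2521 (20.4%) were lower. A gene is called below when it passed this threshold, and only called genes are said to have risen or fallen. A change of at least 2-fold was called for 1003 genes (8.10%), 496 of them higher (4.00%) and 507 lower (4.09%). The numbers were even at 2-fold but not among larger changes. At least 4-fold changes were called higher for 175 genes and lower for 108, at least 8-fold changes for 79 and 18, and at least 16-fold changes for 43 and 4. The genes that rose at least 2-fold started from a median of 70.6 normalized counts in untreated cells, those that fell from 319.8, and all genes tested from 457. Genes that rose at least 2-fold took 1.83% of all normalized counts without treatment and 6.84% at 4 h, while those that fell went from 5.92% to 2.40%. For 999 of the 1003 genes, the 4 mice shared 1 direction. Untreated and 4 h libraries did not overlap for 37.6% of all genes tested. As these are bulk samples, fewer cells of a type and less RNA per cell cannot be told apart.

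**Figure D1:**
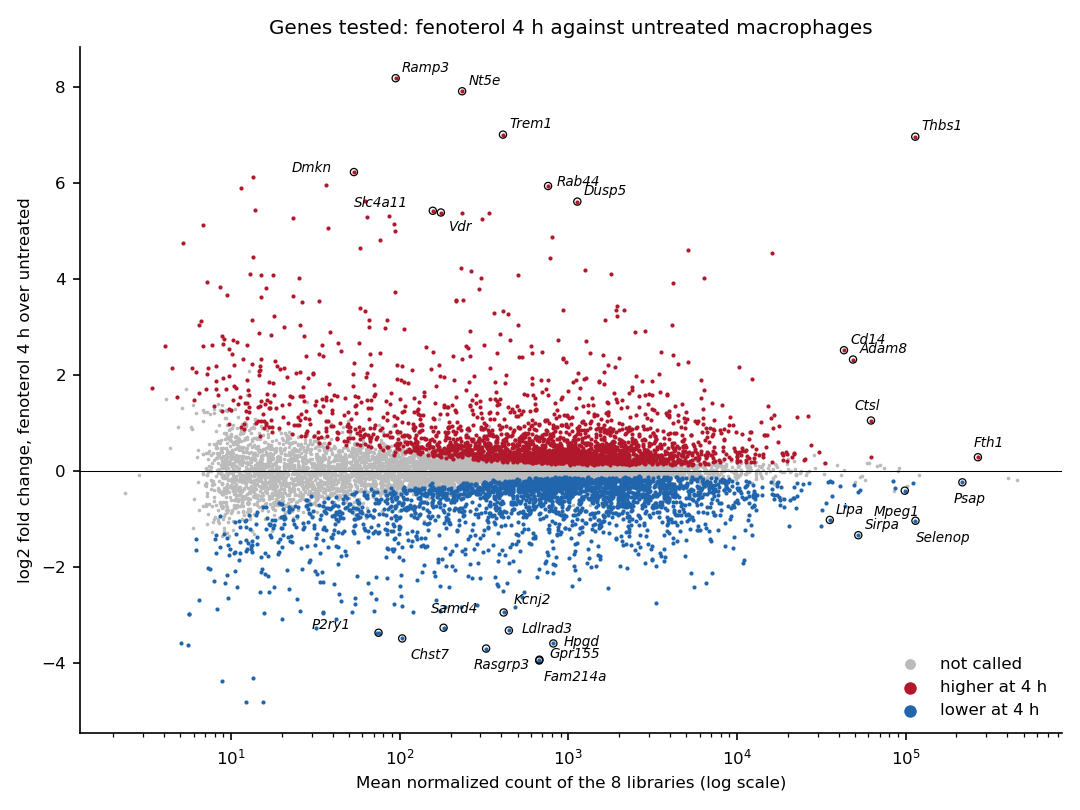
Log2 fold change of fenoterol 4 h over untreated BMDMs (y axis) against the mean normalized count of the 8 libraries (x axis, log scale) for the 12386 genes tested, with genes called higher in red, called lower in blue and not called in grey. Labelled circles mark the largest rises and falls and the largest changes in counts. The labelled falls end at -3.96 on the log2 scale, several labelled rises of genes with low untreated counts lie beyond 5, and *Thbs1* combines a rise of 6.97 with a high mean count.

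Most of the largest rises were of genes that were near 0 or low in untreated BMDMs, with *Thbs1* as an exception. *Rab44* encodes an unusually large Rab family GTPase with calcium-binding domains. It had 20.8, 26.8, 20.2 and 30.1 normalized counts in the untreated libraries of mice 1 to 4 and 1346, 2031, 1699 and 888 at 4 h (log2 fold change 5.94 ± 0.28, edgeR adjusted p = 7.18e-10). The groups did not overlap, and most of the rise came after 1 h, when the mean was 110.3 ± 23.7 (SD, n = 4). *Rab44* lies on GRCm38 at chr17:29114145-29148980. *Vdr*, the receptor of vitamin D, had 5.19, 6.69, 5.78 and 15.1 normalized counts without treatment and 332, 443, 328 and 266 at 4 h (log2 fold change 5.39 ± 0.30, edgeR adjusted p = 3.32e-09). Here, too, the groups did not overlap, and the mean at 1 h was only 29.3 ± 9.88. *Slc4a11*, a membrane transporter of the bicarbonate transporter family, had 6.92, 13.4, 5.78 and 3.23 and then 279, 362, 248 and 338 normalized counts (log2 fold change 5.42 ± 0.26, edgeR adjusted p = 7.84e-10). All 4 libraries of 4 h were far above all untreated libraries. *Dmkn*, the secreted protein dermokine, had 1.73, 0, 1.93 and 1.08 normalized counts without treatment and 96.9, 122, 86.0 and 118 at 4 h. Since no untreated library held more than 3 counts of it, its rise is given as at least 26.3-fold, against 3 counts in each untreated library.

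*Nt5e* encodes CD73, the enzyme that makes adenosine from AMP outside the cell. It had 1.73, 1.34, 3.86 and 0 normalized counts in untreated cells and 359, 680.0, 408 and 421 at 4 h (log2 fold change 7.92 ± 0.45, edgeR adjusted p = 4.49e-09). *Trem1*, an activating receptor of myeloid cells, had 7.79, 1.34, 7.71 and 6.46 and then 1094, 616, 839 and 703 normalized counts (log2 fold change 7.01 ± 0.31, edgeR adjusted p = 3.11e-10). For both genes, the lowest 4 h library lay far above the highest untreated one, and the level at 1 h was in between, with means of 77.2 ± 29.5 for *Nt5e* and 224 ± 49.3 for *Trem1*. The fitted change of *Nt5e* rests on few untreated counts, and it was 8.62 without the untreated library of mouse 3. *Ramp3*, a protein that pairs with the calcitonin receptor-like receptor, had counts in 1 of 4 untreated libraries (0, 2.68, 0 and 0 normalized counts) and 169.8, 283, 170.2 and 132 normalized counts at 4 h, a rise of at least 46.9-fold against 3 counts. *Thbs1* (thrombospondin 1), a secreted matrix glycoprotein, had 2077, 2097, 1631 and 1413 normalized counts without treatment and 219739, 254843, 214567 and 214831 at 4 h (log2 fold change 6.97 ± 0.16, edgeR adjusted p = 2.33e-12). *Dusp5*, a phosphatase of the kinase ERK, had 45.4, 4752 and 2214 normalized counts on average without treatment, at 1 h and at 4 h. It fell by 1.10 on the log2 scale between 1 h and 4 h but stayed above the untreated level (log2 fold change 5.61 ± 0.19, edgeR adjusted p = 3.84e-11). A gene with no symbol in the annotation used, ENSMUSG00000084956, rose by 5.63 ± 0.54 on the log2 scale, from 2.39 to 122 normalized counts.

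**Figure D2:**
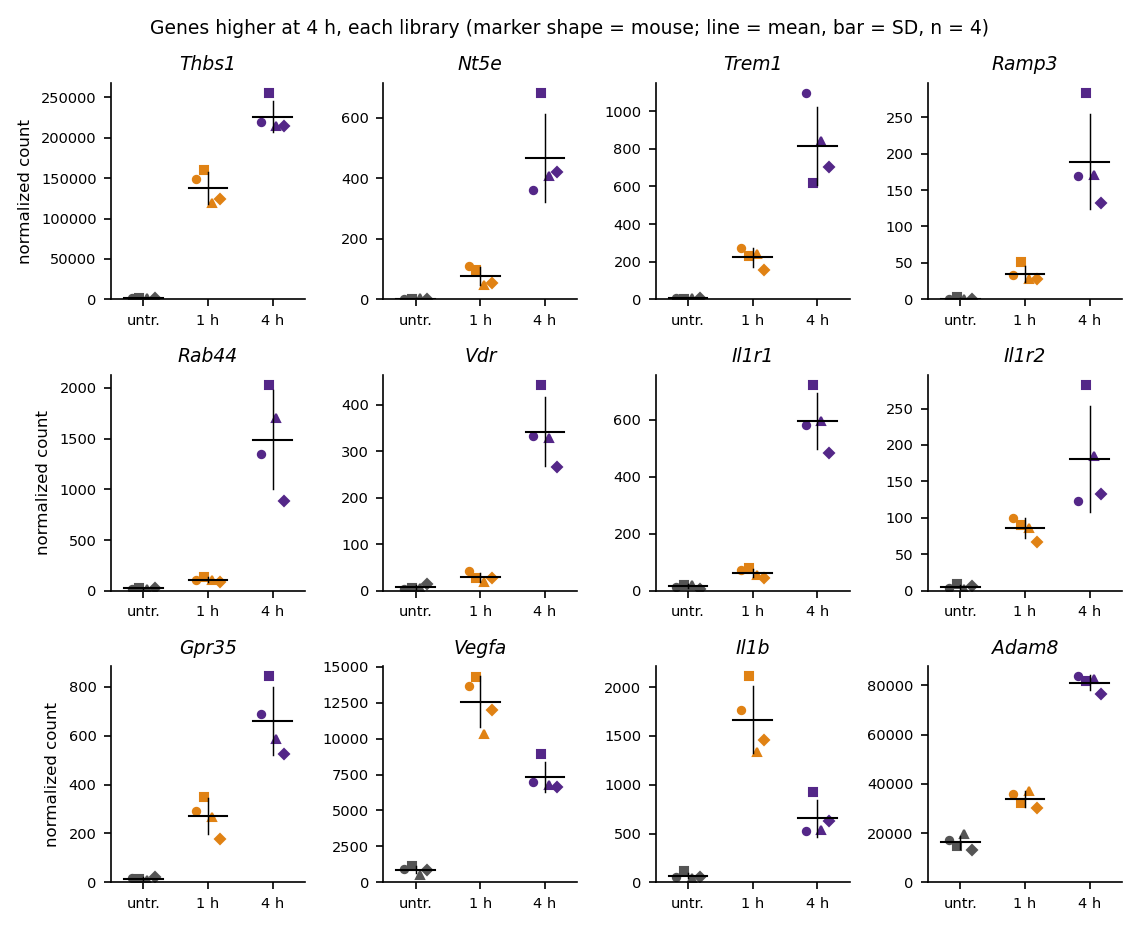
Normalized counts (y axis, linear from 0) of 12 genes that were higher at 4 h, in each untreated, 1 h and 4 h library, with 1 marker shape per mouse, a line at the mean and a bar of 1 SD (n = 4). *Rab44*, *Vdr* and *Il1r1* reach their level mainly after 1 h, whereas *Il1b* and *Vegfa* are higher at 1 h than at 4 h, and no 4 h library falls within the untreated range.

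The largest falls were of genes with moderate levels in untreated BMDMs, and they included a prostaglandin-degrading enzyme, an activator of small GTPases and a purine receptor. *Hpgd* encodes 15-hydroxyprostaglandin dehydrogenase, which inactivates prostaglandin E2. It had 1369, 1522, 1529 and 1602 normalized counts in untreated cells and 115, 119, 121 and 139 at 4 h (log2 fold change -3.60 ± 0.094, edgeR adjusted p = 3.98e-12). The groups did not overlap, and the mean at 1 h was 876 ± 100.4. *Ldlrad3*, which encodes a cell surface receptor, had 895, 803, 653 and 884 normalized counts without treatment and 64.6, 48.0, 71.2 and 130.1 at 4 h (log2 fold change -3.33 ± 0.22, edgeR adjusted p = 2.37e-08). Every 4 h library was below every untreated library, and the 1 h mean of 659 ± 102 was near the untreated mean of 809.

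*Chst7*, a sulfotransferase of glycosaminoglycans, had 144, 241, 183 and 193 and 16.7, 17.7, 19.4 and 13.2 normalized counts in the untreated and the 4 h libraries (log2 fold change -3.50 ± 0.26, edgeR adjusted p = 6.54e-08). *Samd4*, which encodes an RNA-binding repressor of translation, had 324, 371, 247 and 375 and 46.9, 50.1, 13.9 and 27.3 normalized counts (log2 fold change -3.27 ± 0.29, edgeR adjusted p = 5.15e-07). *Kcnj2*, an inward rectifier potassium channel, had 926, 648, 734 and 622 normalized counts without treatment and 75.0, 94.9, 99.0 and 107 at 4 h (log2 fold change -2.96 ± 0.16, edgeR adjusted p = 2.36e-09). In contrast to the genes above, it had fallen further at 1 h, to a mean of 55.9 ± 11.3, and rose by 0.76 ± 0.18 on the log2 scale between 1 h and 4 h (edgeR adjusted p = 0.00385). *Fam214a*, whose product is little characterized, had 1239.6, 1449, 1019.8 and 1338 and 78.1, 85.5, 76.8 and 83.4 normalized counts (log2 fold change -3.96 ± 0.12, edgeR adjusted p = 1.73e-11), and *Gpr155*, a cholesterol-sensing protein of the lysosome, had 1178, 1437, 1245 and 1201 and 76.1, 84.5, 67.5 and 98.9 (log2 fold change -3.94 ± 0.10, edgeR adjusted p = 3.98e-12). The 4 libraries of 4 h were within a narrow range for both genes. *Rasgrp3*, an activator of Ras and Rap GTPases, had 859, 709.6, 626 and 219 normalized counts without treatment and 49.0, 57.4, 54.6 and 26.5 at 4 h (log2 fold change -3.71 ± 0.47, edgeR adjusted p = 1.79e-05). Cells of mouse 4 had the lowest level in each of the 3 groups. Genes were named only if they kept 1 direction in all 4 mice, so the shared fall was a condition of the choice.

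**Figure D3:**
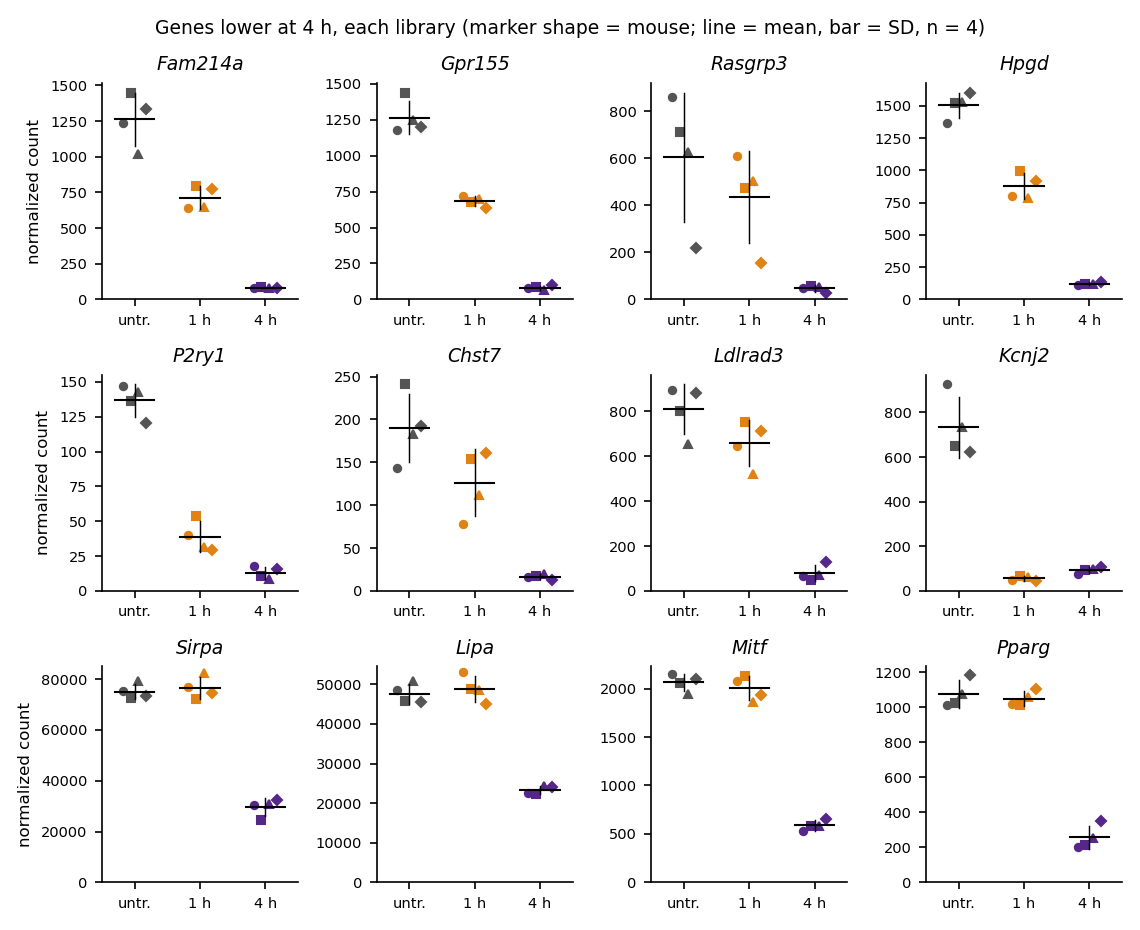
Normalized counts (y axis, linear from 0) of 12 genes that were lower at 4 h, in each untreated, 1 h and 4 h library, with 1 marker shape per mouse, a line at the mean and a bar of 1 SD (n = 4). *Sirpa*, *Lipa*, *Mitf* and *Pparg* are near their untreated level at 1 h and low at 4 h, whereas *Kcnj2* is lowest at 1 h.

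By the difference in normalized counts, the largest rises besides *Thbs1* were of *Adam8*, *Cd14*, *Fth1* and *Ctsl*. *Adam8*, a membrane metalloproteinase of leukocytes, had 17376, 14722, 19496 and 13347 normalized counts without treatment and 83656, 81709, 82685 and 76528 at 4 h (log2 fold change 2.32 ± 0.11, edgeR adjusted p = 5.34e-10). *Cd14*, a co-receptor for lipopolysaccharide, had a mean of 12816 ± 1181 and of 73277 ± 6357 (SD, n = 4; log2 fold change 2.52 ± 0.085, edgeR adjusted p = 3.84e-11). For *Cd14*, no difference between 1 h and 4 h was called (log2 difference 0.13 ± 0.08, edgeR adjusted p = 0.225), while *Adam8* rose further after 1 h. *Ctsl*, the lysosomal protease cathepsin L, had 40563 ± 1336 and 83905 ± 5702 normalized counts (log2 fold change 1.05 ± 0.065, edgeR adjusted p = 1.05e-08). *Fth1*, the ferritin heavy chain, which stores iron, had 241712 ± 7575 and 294149 ± 11634 (log2 fold change 0.28 ± 0.063, edgeR adjusted p = 0.00216).

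The largest falls in normalized counts were of *Selenop*, *Sirpa*, *Lipa*, *Mpeg1* and *Psap*. *Selenop*, a secreted selenium carrier, had 152024, 165889, 149201 and 147938 normalized counts without treatment and 73019, 88006, 69678 and 67979 at 4 h (log2 fold change -1.04 ± 0.096, edgeR adjusted p = 6.76e-07). *Sirpa*, the inhibitory receptor for the signal CD47, had 75481, 72388, 79079 and 73335 and 30385, 24568, 30976 and 32394 (log2 fold change -1.34 ± 0.078, edgeR adjusted p = 5.62e-09). *Lipa*, the lysosomal acid lipase, had 48431, 45675, 50835 and 45403 and 22641, 22388, 24307 and 24197 (log2 fold change -1.03 ± 0.061, edgeR adjusted p = 6.77e-09). In these 3 genes, the groups did not overlap. *Mpeg1* (perforin-2) fell by a smaller -0.41 ± 0.049 on the log2 scale, from a mean of 112795 ± 2184 to 84623 ± 4455. *Psap* (prosaposin) had 234707 ± 19957 and 198704 ± 13869.7 normalized counts, its groups overlapped, and its call (log2 fold change -0.24 ± 0.075, edgeR adjusted p = 0.0198) was lost without the untreated library of mouse 1 (-0.22), that of mouse 2 (-0.20) or the 4 h library of mouse 4 (-0.20) and with limma-trend (-0.24). The strand option of the counting is not given, so reads from both strands of a locus may not be told apart. Of 180 genes checked for this, 13 share at least 10% of their exon sequence with annotated genes on the other strand. For 6 of them, among them *Selenop* and *Ctsl*, those genes were assigned at most 9 counts in the 12 libraries together, and for the other 7 the number is given beside the gene.

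The genes were also grouped by function into 75 lists and families, whose counts are to be read against the 19.7% of all genes tested that were higher and the 20.4% that were lower, and whose medians against a median log2 fold change of 0.0042 over all genes tested.

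**Figure D4:**
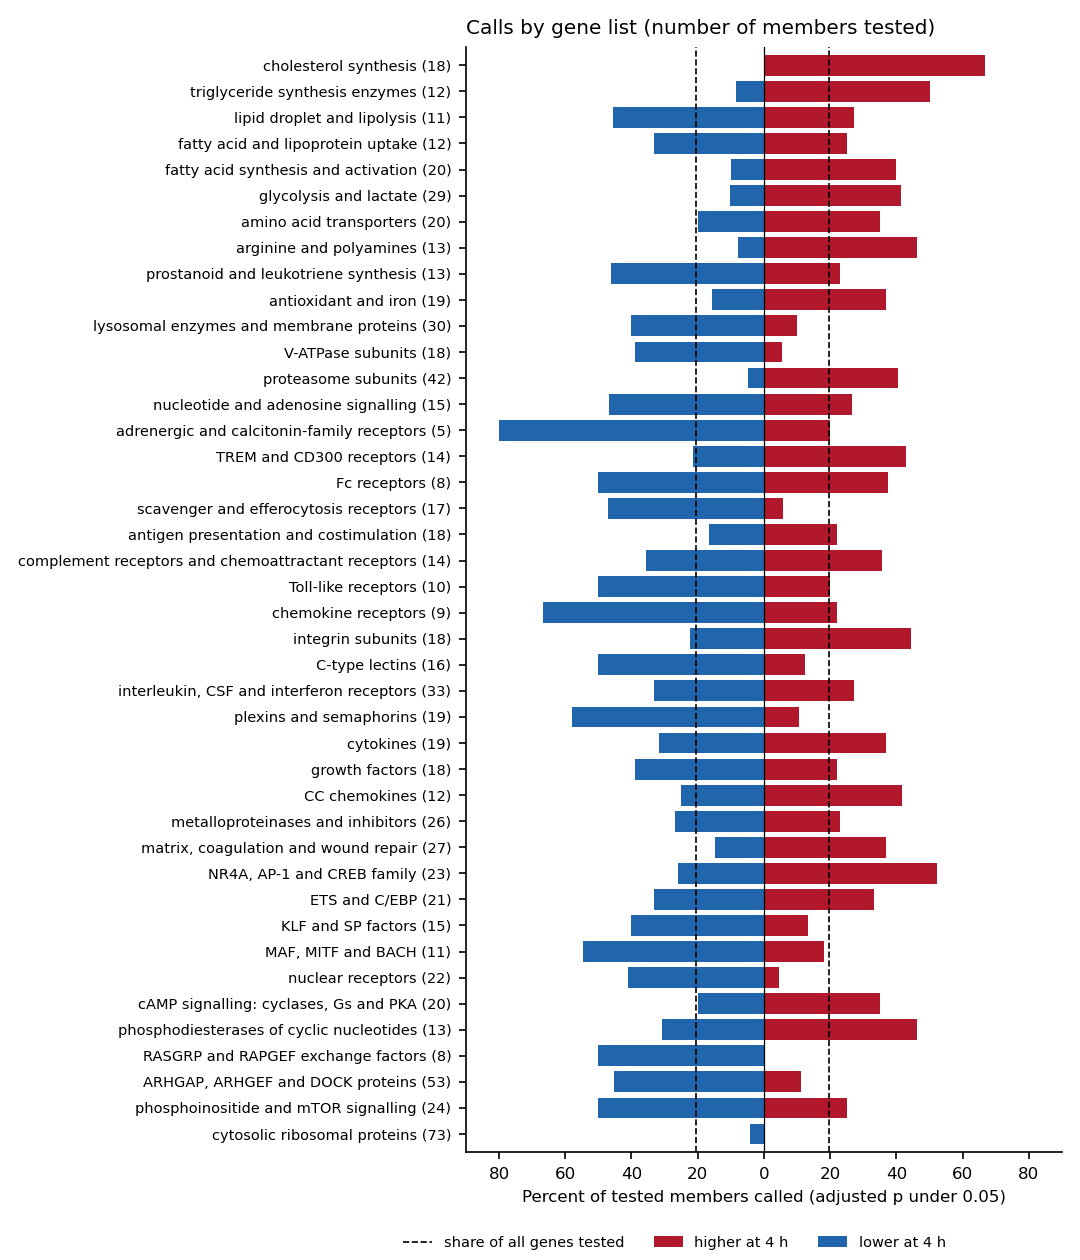
Percent of the tested members of each of 42 gene lists and families that were called higher (red, to the right) or lower (blue, to the left) at 4 h, with the number of members tested in parentheses and dashed lines at the share of all genes tested (19.7% higher, 20.4% lower). Cholesterol synthesis enzymes stand far to the right with 66.7% higher, and plexins and semaphorins, chemokine receptors and lysosomal enzymes lie to the left of the lower line.

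In metabolism, the widest rise was of the enzymes that make cholesterol. Of 18 such enzymes tested, 12 rose and 0 fell, with a median log2 fold change of 0.56. *Sqle*, squalene epoxidase, had 816, 513, 550.4 and 654 normalized counts without treatment and 2198, 1465, 1262 and 1369 at 4 h (log2 fold change 1.31 ± 0.22, edgeR adjusted p = 0.000225). *Hsd17b7*, an enzyme of sterol demethylation, had 189, 143, 96.4 and 158 and 529, 319, 329 and 327 (log2 fold change 1.35 ± 0.23, edgeR adjusted p = 0.000246). For both enzymes, cells of mouse 1 had the highest level at 4 h and also without treatment. *Fdps*, which makes farnesyl diphosphate, rose by 1.28 ± 0.29 on the log2 scale, but at low counts (74.5 and 184). Within the mice, the mean log2 difference over the list was 0.90 in mouse 1, 0.61 in mouse 2, 0.61 in mouse 3 and 0.41 in mouse 4. Compared with the mean of the untreated libraries, the list stood at 0.24, -0.15, -0.15 and 0.057 in the untreated libraries of mice 1 to 4 and at 1.14, 0.46, 0.46 and 0.47 at 4 h, so mouse 1 was high in both groups. With the mouse as a block, 16 members were higher and 1 (*Dhcr7*) was lower. With single libraries left out, 9 to 14 members were higher, with 9 higher and 1 lower without the 4 h library of mouse 1.

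**Figure D5:**
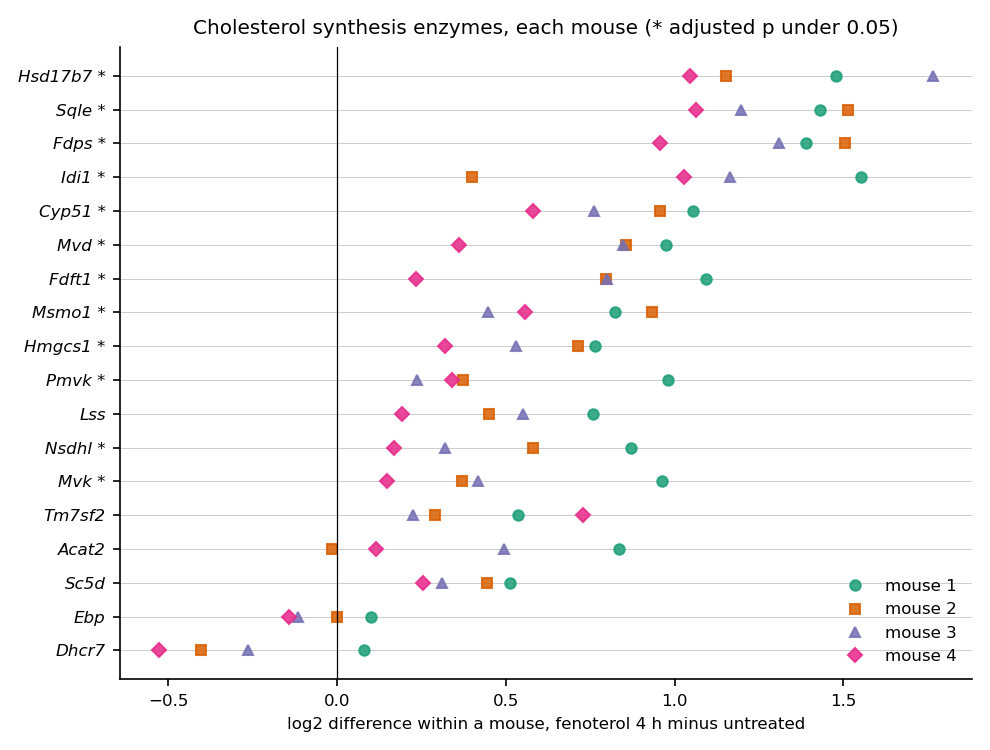
Log2 difference between the 4 h and the untreated library of the same mouse (x axis) for the 18 cholesterol synthesis enzymes (y axis, ordered by fitted fold change), with 1 marker per mouse and an asterisk beside called genes. From *Mvk* upward, all 4 mice lie above 0 for each enzyme, while *Dhcr7* is below 0 in 3 of 4 mice.

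Of 20 genes of fatty acid synthesis and activation, 8 rose and 2 fell, while 10 were not called (median 0.21), and 12 rose with the mouse as a block. The desaturase *Scd2* had 2504, 1159.5, 1732 and 1394 normalized counts in untreated cells and 8507, 4084, 4319 and 4284 at 4 h (log2 fold change 1.64 ± 0.29, edgeR adjusted p = 0.00039), with mouse 1 highest in both groups. The elongase *Elovl6* had 149.7, 129.9, 128 and 159 and 484, 375, 338 and 379 (log2 fold change 1.47 ± 0.18, edgeR adjusted p = 1.01e-05). Of the genes of lipoprotein and fatty acid uptake, 3 rose and 4 fell of 12, with *Slc27a4* and *Slc27a1* among the rises. *Lpl*, lipoprotein lipase, fell by 1.14 on the log2 scale (SE 0.18), from 43460.5 ± 9102 to 19666 ± 3367 normalized counts, and *Fabp4*, a fatty acid-binding protein, fell from 380.4 ± 29.9 to 205 ± 44.7 (log2 fold change -0.89 ± 0.15).

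Of 12 triglyceride synthesis enzymes, 6 rose and 1 fell (median 0.13). *Dgat1*, which makes triglycerides from diacylglycerol, rose by 3.44 ± 0.14 on the log2 scale, *Agpat4* by 1.26 ± 0.069 and the phosphatase *Lpin2* by 0.82 ± 0.098. *Agpat2* fell from 854 ± 18.0 to 669 ± 34.3 normalized counts (log2 fold change -0.35 ± 0.061). With the mouse as a block, 5 enzymes were lower, and 2 or 3 were lower without the untreated library of mouse 1 or 4 or the 4 h library of mouse 1, 2 or 3. Of 11 genes of lipid droplets and lipolysis, 3 rose and 5 fell, the rises including *Lipe*, which encodes a lipase, and *Bscl2*. *Hilpda*, an inhibitor of lipolysis on lipid droplets, rose by 2.86 ± 0.14 on the log2 scale, while *Plin2*, a droplet coat protein, fell from 14394 ± 326 to 9040.3 ± 744 normalized counts (log2 fold change -0.67 ± 0.064). *Abhd5*, the activator of the triglyceride lipase ATGL, fell from 769 ± 43.5 to 423 ± 37.4 (log2 fold change -0.86 ± 0.07, edgeR adjusted p = 1.68e-07), and *Mgll*, which cleaves monoacylglycerol, from 91.3 ± 21.8 to 38.5 ± 9.45 (log2 fold change -1.25 ± 0.26, edgeR adjusted p = 0.00121).

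Glucose and lactate genes rose in part. Of 29 genes of glycolysis and lactate, 12 rose and 3 fell (median 0.27). *Slc16a3*, the lactate exporter MCT4, had 738, 763, 692 and 758 normalized counts without treatment and 11891, 14235, 10759 and 10835 at 4 h (log2 fold change 4.02 ± 0.13, edgeR adjusted p = 2.81e-11). The glucose transporter *Slc2a1* rose from 599 ± 51.4 to 1723 ± 172 (log2 fold change 1.52 ± 0.10, edgeR adjusted p = 2.75e-08), and another one, *Slc2a3*, fell from 250.3 ± 13.3 to 116 ± 18.3 (log2 fold change -1.10 ± 0.12, edgeR adjusted p = 3.98e-06). *Ldha*, lactate dehydrogenase A, rose by 0.90 ± 0.08 on the log2 scale, from 4801 to 8949.8 normalized counts. *Gapdh* was counted at only 54.4 and 114 normalized counts. It has many near-identical copies in the genome, so its rise of 1.06 ± 0.15 is uncertain. In addition, genes on the other strand share 1.65% of its exon sequence and were assigned 11131 counts.

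Of 20 amino acid transporters, 7 rose, 4 fell and 9 were not called. *Slc7a11*, the cystine importer, had 26.0, 17.4, 19.3 and 9.68 normalized counts in untreated cells and 223, 136, 122 and 102 at 4 h (log2 fold change 2.97 ± 0.33, edgeR adjusted p = 4.83e-06). The peptide and histidine transporter *Slc15a3* rose from 5143 ± 707 to 19312 ± 2212 normalized counts (log2 fold change 1.91 ± 0.11, edgeR adjusted p = 6.43e-09). For *Slc15a3*, genes on the other strand share 28.1% of its exon sequence and were assigned 2755 counts. Of 13 genes of arginine and polyamine metabolism, 6 rose and 1 fell. *Odc1*, ornithine decarboxylase, which starts polyamine synthesis, had 125, 161, 173 and 64.6 normalized counts without treatment and 2826, 2929, 3399 and 344 at 4 h (log2 fold change 4.18 ± 0.75, edgeR adjusted p = 0.000435). Cells of mouse 4 were lowest in both groups, with 344 normalized counts at 4 h. A rise in every mouse was a condition for naming *Odc1*. *Smox*, spermine oxidase, rose by 1.76 ± 0.09 on the log2 scale and *Ass1*, argininosuccinate synthase, by 1.91 ± 0.23. *Sat1*, which acetylates polyamines for export, fell from 5093 ± 103 to 2627 ± 86.8 normalized counts (log2 fold change -0.96 ± 0.043).

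Of 19 antioxidant and iron genes, 7 rose and 3 fell. *Srxn1*, sulfiredoxin, rose from 3181 ± 275 to 9065 ± 1315 normalized counts (log2 fold change 1.51 ± 0.12, edgeR adjusted p = 1.5e-07). *Slc40a1*, ferroportin, which exports iron, had 12548, 11075, 11439 and 10915 normalized counts without treatment and 2759, 2882, 2416 and 2456 at 4 h (log2 fold change -2.13 ± 0.089, edgeR adjusted p = 1.97e-10). *Tfrc*, the transferrin receptor, which imports it, fell from 3105 ± 347 to 1283 ± 213 (log2 fold change -1.28 ± 0.16, edgeR adjusted p = 1.67e-05). With the mouse as a block, 6 genes of this list were lower.

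The genes of prostanoid and leukotriene synthesis split, with 3 higher and 6 lower of 13. Besides *Hpgd*, the prostaglandin D2 synthase *Hpgds* fell from 5599 ± 459.8 to 1801 ± 262 normalized counts (log2 fold change -1.64 ± 0.11, edgeR adjusted p = 1.55e-08). *Ptgs1*, cyclooxygenase 1, fell from 1204 ± 194 to 560.0 ± 76.6 (log2 fold change -1.11 ± 0.15, edgeR adjusted p = 2.41e-05). *Alox5*, 5-lipoxygenase, was low and fell from 76.5 ± 22.7 to 39.6 ± 10.6 (log2 fold change -0.96 ± 0.24, edgeR adjusted p = 0.00518), with overlapping groups.

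Lysosomal genes were more often lower than higher. Of 30 lysosomal enzymes and membrane proteins, 3 rose and 12 fell (median -0.17), and the falls were under 2-fold. *Lipa*, given above, is held in the lipolysis list and not in this one. *Ctsl* was the member with the largest rise. Of 18 subunits of the proton pump V-ATPase, 1 rose and 7 fell, and the subunit *Atp6v0a1* had 13835, 12385, 11654 and 12592 normalized counts without treatment and 4625, 3689, 4259 and 4538 at 4 h (log2 fold change -1.56 ± 0.073, edgeR adjusted p = 6.03e-10). *Mitf*, a transcription factor related to *Tfeb*, a driver of lysosomal genes, had 2151, 2061, 1948 and 2096 and 527, 584, 585 and 656 normalized counts (log2 fold change -1.81 ± 0.069, edgeR adjusted p = 8.79e-11). It fell after 1 h, when its mean was 2001 ± 124. *Tfeb* fell by 0.92 on the log2 scale, from 1195 ± 117 to 632 ± 31.3 normalized counts, and *Tfec* by 0.70. *Rragd*, *Rragc* and *Flcn*, which encode 2 Rag GTPases and folliculin, regulators of the kinase complex mTORC1 at the lysosome, fell by 1.06, 0.87 and 0.85 on the log2 scale. Of the 24 genes of phosphoinositide and mTOR signalling, 6 were higher and 12 lower (median -0.20).

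The receptors of the treated cells changed in both directions. Of 5 adrenergic and calcitonin-family receptors and partners tested, *Ramp3* rose and 4 fell. *Calcrl*, the partner of the RAMP proteins in receptors for CGRP and adrenomedullin, fell from 788 ± 60.0 to 246 ± 26.9 normalized counts (log2 fold change -1.68 ± 0.084, edgeR adjusted p = 1.14e-09), and *Ramp1* from 155 ± 24.4 to 51.9 ± 4.52 (log2 fold change -1.58 ± 0.18, edgeR adjusted p = 5.03e-06). *Adra1a*, an alpha1-adrenergic receptor, had 839, 438, 527 and 610.0 and 183, 72.0, 151 and 117 (log2 fold change -2.21 ± 0.25, edgeR adjusted p = 4.98e-06).

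Of 15 genes of nucleotide and adenosine signalling, 4 rose and 7 fell (median -0.36). *Nt5e* and *Adora2b*, the adenosine A2B receptor, rose, the latter from 34.8 ± 8.68 to 575 ± 68.3 normalized counts (log2 fold change 4.02 ± 0.14, edgeR adjusted p = 4.09e-11). Receptors for ADP fell. *P2ry1* had 147, 137, 143 and 120.5 normalized counts in untreated cells and 17.7, 10.4, 8.32 and 15.6 at 4 h (log2 fold change -3.38 ± 0.24, edgeR adjusted p = 4.15e-08). *P2ry13* fell from 331 ± 37.5 to 62.2 ± 10.9 (log2 fold change -2.41 ± 0.14, edgeR adjusted p = 6.78e-09) and *P2ry12* from 311 ± 31.5 to 96.9 ± 8.66 (log2 fold change -1.67 ± 0.11, edgeR adjusted p = 1.89e-08). All 3 receptor genes lie on chromosome 3. *Ptger4*, the EP4 receptor for prostaglandin E2, which also couples to Gs, fell from 727 ± 147 to 142 ± 24.2 normalized counts (log2 fold change -2.35 ± 0.16, edgeR adjusted p = 2.05e-08). For *Ptger4*, genes on the other strand share 16.5% of its exon sequence and were assigned 7070 counts in the 12 libraries, more than *Ptger4* itself (3918).

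*Il1r1*, the signalling receptor for interleukin 1, had 13.8, 20.1, 22.2 and 6.46 normalized counts without treatment and 580.3, 723, 596 and 483 at 4 h (log2 fold change 5.25 ± 0.25, edgeR adjusted p = 8.5e-10). *Il1r2*, a decoy receptor, had 4.33, 9.37, 2.89 and 6.46 and 123, 283, 185 and 132 (log2 fold change 5.01 ± 0.36, edgeR adjusted p = 4.56e-08). Neither gene had overlapping groups. Of 33 interleukin, CSF and interferon receptors, 9 were higher and 11 lower. *Csf2rb*, the common beta chain for GM-CSF, rose from 8550.4 ± 677 to 21939.8 ± 2014 (log2 fold change 1.36 ± 0.087, edgeR adjusted p = 1.55e-08), and *Il6st*, the shared receptor gp130, fell from 6052 ± 541 to 2298 ± 203 (log2 fold change -1.40 ± 0.078, edgeR adjusted p = 3.32e-09).

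Among pattern recognition receptors, falls outnumbered rises. Of 10 Toll-like receptors, 2 rose and 5 fell. *Tlr5*, the flagellin receptor, had 69.2, 97.7, 49.2 and 62.4 normalized counts in untreated cells and 1261, 1973, 1498 and 1180.2 at 4 h (log2 fold change 4.43 ± 0.23, edgeR adjusted p = 1.86e-09). *Tlr7*, which senses single-stranded RNA, had 8504, 8319, 10245 and 7767 and 1845, 1954, 2080.0 and 2109 (log2 fold change -2.12 ± 0.098, edgeR adjusted p = 5.2e-10). *Tlr1* fell from 1279 ± 66.0 to 515 ± 33.1 (log2 fold change -1.31 ± 0.064, edgeR adjusted p = 8.69e-10). Of 16 C-type lectins, 2 rose and 8 fell (median -0.50). *Clec4e* (Mincle) rose from 607 ± 80.5 to 2805 ± 394 normalized counts (log2 fold change 2.20 ± 0.14, edgeR adjusted p = 1.05e-08), and *Clec10a* (MGL1) fell from 692 ± 173 to 122 ± 21.0 (log2 fold change -2.50 ± 0.23, edgeR adjusted p = 5.22e-07).

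Receptors for dying cells and for antibodies were also affected. Of 17 scavenger and efferocytosis receptors, 1 rose and 8 fell (median -0.31). *Mertk*, a receptor kinase for the uptake of apoptotic cells, had 3831, 4077, 3638 and 3879.5 normalized counts without treatment and 1305, 1340.2, 1354 and 1406 at 4 h (log2 fold change -1.51 ± 0.054, edgeR adjusted p = 5.13e-11). Its bridging ligand *Gas6* fell from 28129.7 ± 1475 to 12681 ± 1588 (log2 fold change -1.15 ± 0.079, edgeR adjusted p = 2.8e-08). *Stab2* fell by 1.66 and *Itgb3* by 1.58 on the log2 scale, both at low counts. Of 8 Fc receptors, 3 rose and 4 fell, and those that rose (*Fcgr1*, *Fcgr3* and *Fcgr4*) pass activating signals. *Fcgr4* went from 2007 ± 383 to 4161 ± 427 normalized counts (log2 fold change 1.05 ± 0.12) and *Fcgr1* from 5387 ± 1244 to 8871 ± 585 (0.72 ± 0.14). The inhibitory *Fcgr2b* fell from 7446 ± 549.6 to 5299 ± 387 (log2 fold change -0.49 ± 0.073), and *Fcrl1* from 328 ± 35.8 to 45.3 ± 10.7 (-2.85 ± 0.15). Of 14 TREM and CD300 receptors, 6 rose and 3 fell, *Cd300lf* rising from 283 ± 47.9 to 849 ± 146 (log2 fold change 1.58 ± 0.17, edgeR adjusted p = 3.73e-06).

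Genes of antigen presentation and costimulation were called in both directions. *Cd86* had 509, 769, 690.1 and 656 normalized counts without treatment and 1917, 2984, 2030.1 and 2660.2 at 4 h (log2 fold change 1.88 ± 0.17, edgeR adjusted p = 5e-07), and *Cd80* rose by 1.23 ± 0.13 on the log2 scale. *Cd40* fell from 176 ± 17.9 to 28.7 ± 5.14 (log2 fold change -2.60 ± 0.14, edgeR adjusted p = 2.4e-09). *Ciita*, the activator of MHC class II genes, had 249, 353, 63.6 and 174 and 42.7, 88.6, 12.9 and 29.6 normalized counts (log2 fold change -2.29 ± 0.57, edgeR adjusted p = 0.00519). The mice differed widely and the groups of *Ciita* overlapped, and a fall in each mouse was a condition for naming it. Its log2 fold change was -2.88 without the 4 h library of mouse 2. For *Ciita*, genes on the other strand share 3.45% of its exon sequence and were assigned 2358 counts in the 12 libraries, more than *Ciita* itself (1355). Of the 18 genes of antigen presentation and costimulation, 4 were higher and 3 lower, or 7 and 7 with the mouse as a block.

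Among receptors of migration and adhesion, 6 of 9 chemokine receptors fell and 2 were higher. The latter number ranged from 1 to 4 over the alternative fits, which did not all test the same genes. It was 1 without the untreated library of mouse 2 or of mouse 4 or the 4 h library of mouse 1. *Cx3cr1*, the fractalkine receptor, had 253, 293, 242 and 383 normalized counts in untreated cells and 22.9, 37.5, 79.5 and 77.9 at 4 h (log2 fold change -2.40 ± 0.29, edgeR adjusted p = 1.12e-05), and *Ccr2* fell from 2113 ± 208 to 921 ± 88.7 (log2 fold change -1.20 ± 0.11, edgeR adjusted p = 4.03e-07). *Ptafr*, the receptor of platelet-activating factor, fell from 9599.8 ± 279 to 4041 ± 116 (log2 fold change -1.25 ± 0.05, edgeR adjusted p = 1.44e-10). Of 14 complement receptors and chemoattractant receptors, a list that holds *Ptafr*, 5 rose and 5 fell. *Gpr35*, a receptor of metabolites, had 18.2, 13.4, 10.6 and 20.4 normalized counts without treatment and 687, 843, 585 and 523 at 4 h (log2 fold change 5.38 ± 0.26, edgeR adjusted p = 8.95e-10), and the lysophosphatidic acid receptor *Lpar1* rose from 14.3 ± 5.05 to 117 ± 12.2 (log2 fold change 3.01 ± 0.23, edgeR adjusted p = 1.03e-07). Of 18 integrin subunits, 8 rose and 4 fell, with *Itga1*, a collagen-binding subunit, at 17.3, 6.69, 8.67 and 18.3 and then 247, 212, 116 and 129 normalized counts (log2 fold change 3.73 ± 0.35, edgeR adjusted p = 8.97e-07), and *Itga9* rising by 1.85 ± 0.13 on the log2 scale. Of 19 plexins, semaphorins and neuropilins, which guide cell movement, 2 rose and 11 fell (median -0.54), the number of rises being as low as 1 under the alternative fits. *Sema6d* fell from 161 ± 22.6 to 23.1 ± 5.79 (log2 fold change -2.78 ± 0.25, edgeR adjusted p = 5.17e-07), *Nrp1* by 1.19 and *Plxnd1* by 1.10 on the log2 scale. Within the mice, the mean log2 difference over this family was -0.65 to -0.41.

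Among secreted factors, cytokines split, with 7 higher and 6 lower of 19. *Il1b* had 55.4, 112, 50.1 and 60.2 normalized counts without treatment and 528, 928, 537 and 630.2 at 4 h (log2 fold change 3.28 ± 0.26, edgeR adjusted p = 1.2e-07). It had been higher at 1 h, with a mean of 1667 ± 346. Its antagonist *Il1rn* rose from 192 ± 45.6 to 545 ± 129 (log2 fold change 1.49 ± 0.22, edgeR adjusted p = 8.17e-05). *Tnfsf14* (LIGHT) rose by 2.14 ± 0.12 on the log2 scale. *Tnf* fell from 252 ± 32.3 to 124 ± 21.7 (log2 fold change -1.02 ± 0.15, edgeR adjusted p = 6e-05) and *Il10*, an anti-inflammatory cytokine, from 74.2 ± 13.8 to 33.9 ± 10.2 (log2 fold change -1.13 ± 0.22, edgeR adjusted p = 0.000916).

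Of 18 growth factors, 4 rose and 7 fell (median -0.23). *Vegfa*, which drives the growth of blood vessels, had 967, 1170.2, 549 and 884 normalized counts without treatment and 6977, 8925, 6785 and 6624 at 4 h (log2 fold change 3.04 ± 0.19, edgeR adjusted p = 1.05e-08). *Tgfb3* rose from 34.0 ± 7.34 to 395 ± 45.7 (log2 fold change 3.55 ± 0.17, edgeR adjusted p = 9.05e-10). *Igf1* had 17624, 17175, 17466 and 17705 and 6611, 6813, 6140.1 and 7992 normalized counts (log2 fold change -1.34 ± 0.077, edgeR adjusted p = 4.65e-09), *Pdgfb* fell by 1.80, *Pdgfc* by 2.12 and *Bmp2* by 2.06 on the log2 scale. The number of rising growth factors was 2 without the untreated library of mouse 4 or the 4 h library of mouse 2 or mouse 3.

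Genes of matrix, coagulation and wound repair leaned upward, with 10 higher and 4 lower of 27 (median 0.19). *F5*, coagulation factor V, had 71.8, 54.9, 24.1 and 55.9 normalized counts without treatment and 1551, 2061, 1111 and 1429 at 4 h (log2 fold change 4.89 ± 0.26, edgeR adjusted p = 1.88e-09). *Vcan*, the proteoglycan versican, had 31.1, 25.4, 24.1 and 11.8 and 592, 472, 399 and 299 (log2 fold change 4.23 ± 0.26, edgeR adjusted p = 1.05e-08). Both rose after 1 h, when their means were 73.9 ± 16.9 and 30.4 ± 6.81. *Tgm2*, transglutaminase 2, which crosslinks proteins, rose from 1315 ± 202 to 30703 ± 1379 (log2 fold change 4.54 ± 0.11, edgeR adjusted p = 2.33e-12), and the metalloproteinase *Mmp19* from 1315 ± 156 to 7015 ± 1583 (log2 fold change 2.41 ± 0.16, edgeR adjusted p = 1.79e-08). For *Tgm2*, genes on the other strand share 21.8% of its exon sequence and were assigned 8763 counts, and for *Mmp19* 28.3% and 9012 counts. *Plau*, the urokinase plasminogen activator, fell from 1139 ± 171 to 351 ± 85.1 (log2 fold change -1.70 ± 0.21, edgeR adjusted p = 1.5e-05). Of 26 metalloproteinases and inhibitors, 6 rose and 7 fell.

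Of 12 CC chemokines, 5 were higher and 3 lower. *Ccl3* had 991, 815, 948 and 644 normalized counts in untreated cells and 130.2, 81.3, 147 and 116 at 4 h (log2 fold change -2.84 ± 0.17, edgeR adjusted p = 7.57e-09), and *Ccl4* fell from 415 ± 91.1 to 108 ± 17.5 (log2 fold change -1.95 ± 0.17, edgeR adjusted p = 4.34e-07). *Ccl9* and *Ccl6* rose by 1.15 ± 0.064 and 1.03 ± 0.11 on the log2 scale. Of 8 CXC chemokines, 4 were higher and 1 lower. *Cxcl10*, an interferon-induced chemokine, was low and fell from 91.9 ± 36.4 to 19.2 ± 13.9 (log2 fold change -2.19 ± 0.38, edgeR adjusted p = 0.000352), and its log2 fold change was -2.87 without the 4 h library of mouse 4.

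Several transcription factors were higher at 4 h than in untreated cells, at levels below those of 1 h. Of 23 members of the NR4A, AP-1 and CREB families, 12 were higher and 6 lower. *Nr4a2*, an orphan nuclear receptor, had 11.2, 14.7, 10.6 and 7.53 normalized counts without treatment and means of 3897 at 1 h and 457 at 4 h. *Crem*, a CREB relative whose short forms repress CRE-driven genes, had 195, 5855 and 3388, *Fosl2* had 516, 23452 and 7774, and *Fosb* had 9.85, 8538 and 107. For each of them, 4 h was called higher than untreated and lower than 1 h. *Atf3*, in contrast, fell from 4874 ± 260.2 to 1354 ± 90.1 normalized counts (log2 fold change -1.85 ± 0.069, edgeR adjusted p = 7.04e-11), and *Egr2* from 306 ± 69.4 to 40.7 ± 20.5 (log2 fold change -2.93 ± 0.29, edgeR adjusted p = 1.38e-06).

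Among lineage factors, *Cebpb* and *Cebpa* moved in opposite directions. *Cebpb* had 168, 224, 179 and 175 normalized counts without treatment and 601, 610.1, 758 and 648 at 4 h (log2 fold change 1.82 ± 0.14, edgeR adjusted p = 8.46e-08), whereas *Cebpa* had 1838, 2283, 1855 and 2026 and 714, 753, 752 and 689 (log2 fold change -1.46 ± 0.069, edgeR adjusted p = 6.26e-10). For *Cebpb*, genes on the other strand share 20.7% of its exon sequence and were assigned 65079 counts in the 12 libraries, more than *Cebpb* itself (9464). Likewise, *Ets2* rose by 1.93 ± 0.082 and *Ets1* fell by 1.68 on the log2 scale. Of the ETS and C/EBP factors, 7 were higher and 7 lower of 21. *Stat4* had 89.1, 69.6, 81.0 and 87.1 normalized counts without treatment and 748, 948, 733 and 742 at 4 h (log2 fold change 3.27 ± 0.12, edgeR adjusted p = 7.04e-11), and *Stat3* rose by 0.90 ± 0.067. *Irf4* had 271, 490.1, 348 and 517 normalized counts without treatment and 36.5, 64.7, 67.5 and 56.9 at 4 h (log2 fold change -2.84 ± 0.28, edgeR adjusted p = 1.58e-06). *Irf8*, which directs macrophage development, fell from 6066 ± 646 to 2773 ± 237 (log2 fold change -1.13 ± 0.087, edgeR adjusted p = 1.05e-07).

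Of 22 nuclear receptors, not counting the NR4A family, 9 fell and 1, *Vdr*, rose. With the mouse as a block 4 were higher, and 2 were without the 4 h library of mouse 4. *Pparg*, a receptor that controls lipid handling, had 1016, 1024, 1077 and 1186 normalized counts in untreated cells and 204, 216, 255 and 352 at 4 h (log2 fold change -2.05 ± 0.13, edgeR adjusted p = 1.24e-08). Its mean at 1 h was 1049 ± 43.4, so the fall came later. Of the 11 factors of the MAF, MITF and BACH families, 2 rose and 6 fell. Of the 15 KLF and SP factors, 2 rose and 6 fell. The MYC-MAX network and ID proteins had 3 rises and 5 falls among 11 tested, with *Mxd4*, *Mnt*, *Mxd1* and *Max* among the falls. The differentiation inhibitor *Id3* rose from 73.1 ± 14.8 to 747 ± 91.2 (log2 fold change 3.34 ± 0.15, edgeR adjusted p = 3.11e-10), the MYC antagonist *Mxi1* from 1026 ± 41.7 to 4009 ± 280.0 (log2 fold change 1.97 ± 0.061, edgeR adjusted p = 1.91e-11), and the repressor *Nfil3* from 307 ± 39.0 to 1561 ± 262 (log2 fold change 2.35 ± 0.14, edgeR adjusted p = 6e-09).

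The genes that carry or end the cAMP signal changed as well. Of 13 phosphodiesterases tested, 6 rose, each at least 2-fold, and 4 fell, or 2 without the untreated or the 4 h library of mouse 1. *Pde4d* had 34.6, 38.8, 39.5 and 35.5 normalized counts without treatment and 403, 499.6, 451 and 393 at 4 h (log2 fold change 3.56 ± 0.12, edgeR adjusted p = 3.88e-11). *Pde3b* had 533, 669, 702 and 744 and 4023, 5843, 4826 and 5355 (log2 fold change 2.92 ± 0.15, edgeR adjusted p = 1.26e-09). *Pde4b* rose from 625 ± 71.4 to 2617 ± 403 (log2 fold change 2.07 ± 0.11, edgeR adjusted p = 2.69e-09) and *Pde8a* from 1126 ± 83.2 to 3453 ± 193 (log2 fold change 1.62 ± 0.066, edgeR adjusted p = 1.55e-10). *Pde4b* had been higher at 1 h, with a mean of 6521 ± 630.1, whereas *Pde3b* and *Pde8a* rose mostly after 1 h, when their means were 1211 ± 224 and 1237 ± 73.0. All 4 encode enzymes that degrade cAMP. Of 20 cyclases, Gs and PKA genes, 7 rose and 4 fell, or 7 with the mouse as a block. The cyclase *Adcy9* fell from 913 ± 106 to 352 ± 30.9 normalized counts (log2 fold change -1.37 ± 0.09, edgeR adjusted p = 1.79e-08). The regulatory subunit *Prkar1a*, which holds PKA inactive, rose from 6459 ± 131 to 10185 ± 337 (log2 fold change 0.66 ± 0.047, edgeR adjusted p = 4.42e-08). *Sik1*, a kinase that restrains CREB coactivators, had 183, 257, 21.2 and 223 and 1003, 1306, 829.6 and 946 (log2 fold change 2.61 ± 0.37, edgeR adjusted p = 5.1e-05), with a low value in the untreated library of mouse 3. *Rgs1*, a brake on G protein signals, rose by 2.33 ± 0.16.

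Many regulators of small GTPases fell. Of 53 members of the ARHGAP, ARHGEF and DOCK families of GTPase activating proteins and exchange factors, 6 rose (11.3%) and 24 fell (45.3%) (median -0.19). *Arhgap19* had 5393, 5939.6, 5435 and 4396 normalized counts without treatment and 1485, 1218, 1422 and 1188 at 4 h (log2 fold change -1.99 ± 0.11, edgeR adjusted p = 4.39e-09), *Arhgap17* fell by 1.77 and *Dock10* by 1.47 on the log2 scale. Of 8 RASGRP and RAPGEF exchange factors, 0 rose and 4 fell. Besides *Rasgrp3*, *Rapgef5*, which activates Rap GTPases, fell from 2035 ± 340.5 to 538 ± 144 (log2 fold change -1.92 ± 0.17, edgeR adjusted p = 3.87e-07), and *Rapgef6* by 1.40 on the log2 scale. Among phosphatases of MAP kinases, *Dusp1* rose from 322 ± 36.8 to 1193 ± 99.7 (log2 fold change 1.89 ± 0.10, edgeR adjusted p = 3.32e-09), and *Dusp7* fell from 740.1 ± 44.3 to 267 ± 24.0 (log2 fold change -1.47 ± 0.097, edgeR adjusted p = 2.05e-08).

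Of 73 cytosolic ribosomal protein genes, 0 were higher (1 with the mouse as a block) and 3 lower, or 1 lower when single libraries were left out, such as the untreated library of mouse 2, 3 or 4 or the 4 h library of mouse 2 or 4. Of 42 proteasome subunits, 17 rose (40.5%) and 2 fell (4.76%), with a median log2 fold change of 0.15 and no change of 2-fold.

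Since CREB binds promoters through CREs, the promoters of the called genes were searched for the full palindromic CRE, TGACGTCA, and for its half-site, TGACG, on both strands. The promoter sequences are those of RefSeq for GRCm38.p6 and reach from 250 bases before to 50 bases after a start site. A full CRE was found in the promoters of 341 of 9460 genes tested that had a sequence (3.60%, 95% Wilson interval 3.25% to 4.00%). It was found for 9 of 362 genes that rose at least 2-fold (2.49%, 1.31% to 4.66%) and for 6 of 366 that fell at least 2-fold (1.64%, 0.753% to 3.53%), among those with a sequence. The half-site, which the full site contains, was found for 35.9%, 34.3% and 28.7% of these genes. For all called genes, the shares with a full CRE were 3.41% (higher) and 2.47% (lower), and those with a half-site 39.6% and 31.3%. Among genes with a sequence that rose at least 2-fold, 60 were called lower at 4 h than at 1 h, of which 2 held a full CRE (3.33%, 0.919% to 11.4%) and 32 a half-site (53.3%, 40.9% to 65.4%). A further 219 were called higher at 4 h than at 1 h, of which 6 held a full CRE (2.74%, 1.26% to 5.85%) and 65 a half-site (29.7%, 24.0% to 36.0%). The share with a full CRE among genes that rose at least 2-fold was below that of all genes tested, with an interval that holds it, and the interval of the genes that fell at least 2-fold lies below it. A match is a description of the sequence and not a bound site.

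Below are 60 bases of the promoters of 4 genes that rose and hold a full CRE, shown because they span the roles described above: a phosphatase, a glycolytic enzyme, a subunit of PKA and a CREB family member. They are written 5′ to 3′ on the strand of the gene, with the CRE in capitals. The *Dusp1* sequence lies on GRCm38.p6 at chr17:26508582-26508641 (minus strand), that of *Ldha* at chr7:46845766-46845825 (plus strand), that of *Prkar1a* at chr11:109650874-109650933 (plus strand) and that of *Creb5* at chr6:53287232-53287291 (plus strand).
Dusp1: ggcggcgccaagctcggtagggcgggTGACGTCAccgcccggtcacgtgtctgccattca
Ldha: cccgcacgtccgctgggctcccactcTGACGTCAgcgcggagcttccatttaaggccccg
Prkar1a: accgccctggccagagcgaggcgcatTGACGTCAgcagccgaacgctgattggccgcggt
Creb5: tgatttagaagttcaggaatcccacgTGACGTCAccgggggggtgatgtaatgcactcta

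The CRE is centred at -139 from the start site of *Dusp1*, at -8 from that of *Ldha*, at -45 from one start site of *Prkar1a* (and at 42 from another) and at -41 from that of *Creb5*. *Dusp1* rose by 1.89 ± 0.10 on the log2 scale at 4 h and had been higher at 1 h, with a mean of 5838 ± 729 normalized counts. The other 3 genes kept rising between 1 h and 4 h, with log2 differences of 0.50 ± 0.08 for *Ldha*, 0.33 ± 0.047 for *Prkar1a* and 0.44 ± 0.081 for *Creb5*. *Creb5*, which was chosen for its promoter after its values were seen, had 743, 798, 795 and 671 normalized counts without treatment and 1311, 1462, 1184 and 1394 at 4 h (log2 fold change 0.83 ± 0.082, edgeR adjusted p = 1.42e-06).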

How the data were processed

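Stranded mRNA libraries of total RNA were sequenced as single-end reads of 50 bases. The authors mapped the reads to GRCm38 with TopHat2 2.0.11 and counted them per gene with HTSeq 0.8.0 (versions from the submitters' processing notes), and the deposited values are raw read counts, not normalized. The strand option of the counting is not given in the sources used here, so reads of overlapping genes on opposite strands may not be told apart. Reads that map to several places were not described, and genes with near-identical copies are uncertain. Of 53379 genes listed, 53274 were matched to GENCODE M21, 105 were not, and 29819 had no count.

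From these counts, 12386 genes that passed edgeR's filterByExpr were tested with the quasi-likelihood test of edgeR 4.0.16 (R 4.3.3), in 1 fit over the 12 libraries with TMM scaling, a mean per group and no covariate. Unless a block is named, calls, standard errors and p-values come from this fit and do not use the pairing by mouse. Adjusted p-values are Benjamini-Hochberg values over the whole set tested, and values after ± are SDs for normalized counts and standard errors for log2 fold changes. In the study, counts were normalized with vsn and tested with limma. Normalized counts are TMM-scaled counts at the mean library size and are not per length, so they compare libraries and not genes. Where every untreated library held at most 3 counts, a lower bound against 3 counts is given. The common biological coefficient of variation was 0.112. Intervals of shares cover counting error only.

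The members and gene lists were chosen with earlier results of these data known. Named genes are the 10 largest rises and falls among called genes that averaged 50 or more normalized counts and kept 1 direction in all 4 mice, the 5 largest rises and falls in normalized counts, up to 4 rises and 4 falls per list under the same filter, *Hilpda*, *Dgat1* and markers. *Creb5* was added. Some genes that these rules or lists hold are not reported here and were left out of the lists. There were 42 lists written by hand and 33 families defined by symbol.

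The labels give the mouse of each library. Deviations from group means of libraries of the same mouse had Pearson's r of 0.290 to 0.561 (12 pairs) and those of different mice -0.304 to 0.0912 (36 pairs), so the numbers pair the samples, and the fit with the mouse as a block is the main alternative. The others were DESeq2 1.42.0, limma-voom and limma-trend (limma 3.58.1), RLE or library size scaling, other filters on low counts, a fit of the 8 libraries alone, an adjusted p under 0.01, each library left out in turn, and the CRE half-site. The edgeR script was tested on simulated counts. Promoters were searched with Python 3.11.15, and figures were drawn with matplotlib 3.10.9.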

Additional observations from a re-analysis of the deposited data

Results flagged for a closer look

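The response differed between the time points. Directly compared, 4773 of 12386 genes (38.5%) had an adjusted p under 0.05 between 4 h and 1 h in edgeR's quasi-likelihood test, and among 29 genes followed in detail 28 differed. Log2 differences of 4 h minus 1 h among genes that were higher at 4 h than at 1 h were 3.76 for *Rab44*, 3.54 for *Vdr*, 3.25 for *Il1r1*, 2.88 for *Dmkn*, 2.65 for *Slc4a11*, 2.60 for *Nt5e*, 2.44 for *Ramp3*, 1.86 for *Trem1*, 1.28 for *Gpr35*, 1.07 for *Il1r2*, 0.71 for *Thbs1* and 0.76 for *Kcnj2*. All but *Kcnj2* were also higher than in untreated cells, and *Kcnj2* was below its untreated level at both times. Among genes lower at 4 h than in untreated cells, the differences were -3.23 for *Rasgrp3*, -3.14 for *Fam214a*, -3.05 for *Gpr155*, -3.05 for *Samd4*, -3.03 for *Ldlrad3*, -2.91 for *Chst7*, -2.82 for *Hpgd*, -2.02 for *Pparg*, -1.76 for *Mitf*, -1.56 for *P2ry1*, -1.37 for *Sirpa*, -1.06 for *Lipa* and -0.76 for *Selenop*, so each of them fell between the time points. For genes that were high at both times but lower at 4 h than at 1 h, they were -1.35 for *Il1b*, -1.10 for *Dusp5* and -0.78 for *Vegfa*. These comparisons share the 4 h libraries with those against untreated cells.

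In 15 of 389 groups of 4 libraries, 1 library stood apart from the other 3 by Dixon's ratio, at its 95% critical value for 4 samples, and chance alone gives about 19.4 such groups, at 1 in 20. At 4 h, the library of mouse 1 stood apart with the highest normalized counts of *Scd2* (8507), *Hsd17b7* (529.3), *Fdps* (277.1), *Ldha* (10510) and *Dusp7* (303.2). The 4 h library of mouse 2 was highest for *Thbs1* (254800), *Il6st* (2600), *Vegfa* (8925) and *Stat4* (948) and lowest for *Bcl2l1* (518.3). The 4 h library of mouse 4 was lowest for *Slc15a3* (16030) and highest for *Calcrl* (285.9). Among untreated libraries, that of mouse 2 was highest for *Ramp3* (2.678) and *Il1b* (112.5), and that of mouse 4 for *Vdr* (15.06). In each of these genes the 4 h and the untreated libraries did not overlap.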

How the results depend on the processing

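With the mouse as a replicate block, 5870 genes were called at 4 h against untreated and 1037 with at least 2-fold change, and 5775 at 4 h against 1 h. The block changed 2 calls among 180 genes followed through the alternatives, *Lyz2* (log2 fold change -0.19) and *Dhcr7* (-0.25) becoming lower. List counts that it moved by over 1.5 times are given beside the lists described. Among other lists, it moved interferon-stimulated genes called higher from 4 to 8, cell cycle and DNA replication genes called higher from 6 to 13, histone demethylases and methyltransferases called lower from 5 to 8, prostanoid receptors and interferon regulatory factors called higher from 1 to 2 each, STAT factors called lower from 1 to 2 and mitochondrial genes of oxidative phosphorylation called higher from 0 to 1. Over DESeq2, limma-voom, limma-trend, the scalings, the filters and the fit of 8 libraries, 4618 to 5006 genes were called, and 704 to 1141 with at least 2-fold change. At an adjusted p under 0.01, 3613 were called. Without single libraries, 4464 to 4708 were called and 997 to 1035 with at least 2-fold change. Of these 180 genes, 175 had the same call under all alternatives in which they were tested and 0 changed sign. The exceptions were *Psap*, *Adgre1*, *Csf1r*, *Lyz2* and *Dhcr7*, with 14 calls lost and 5 gained in 3058 fits. Most of the 180 were chosen as called genes with large changes and 1 direction in all 4 mice, so such stability was largely set by the choice. Scaling by library size only moved the share of higher genes among those called from 49.2% to 53.4%, and between 4 h and 1 h from 48.6% to 65.7% of 5333 genes, so the direction of small differences between the time points depends on the scaling. The fitted change of *Ramp3* ranged from 6.21 (limma-trend) to 10.59 (without the untreated library of mouse 2), since its untreated counts were near 0. Genes with low counts limit what was detectable, as 12386 of the 53379 genes listed were deep enough to test.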

Other observations

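Clock genes split at 4 h, with 5 higher and 6 lower of 17 tested. *Per1* and *Cry1*, repressors of the clock, rose by 0.76 ± 0.064 and 0.87 ± 0.084 on the log2 scale, from 837 to 1419 and from 219 to 401 normalized counts. *Dbp*, a clock output factor, fell from 1066 ± 126 to 457 ± 46.3 (log2 fold change -1.22 ± 0.12, edgeR adjusted p = 9.28e-07). For *Dbp*, genes on the other strand share 18.0% of its exon sequence and were assigned 37492 counts in the 12 libraries, more than *Dbp* itself (8784), and the strand option of the counting is not given, so its reads may not be told apart from theirs. *Bhlhe41* fell from 723 ± 101 to 288 ± 75.9 (log2 fold change -1.33 ± 0.20, edgeR adjusted p = 7.55e-05) and *Per3* from 463 ± 76.3 to 239 ± 45.1 (log2 fold change -0.95 ± 0.15, edgeR adjusted p = 0.00017). The labels give no time of day, and cells of the 3 groups were harvested after different times with fenoterol.

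Of 23 genes of ER stress and the integrated stress response, 12 rose and 3 fell, or 5 with the mouse as a block. *Ddit4*, an inhibitor of mTORC1, rose from 57.8 ± 6.93 to 251 ± 85.2 normalized counts (log2 fold change 2.12 ± 0.24, edgeR adjusted p = 6.51e-06), and *Ern1*, the stress sensor IRE1, by 0.74 ± 0.077 on the log2 scale. *Herpud1*, a component of ER-associated degradation, fell from 1329 ± 249 to 579.9 ± 89.1 (log2 fold change -1.19 ± 0.15, edgeR adjusted p = 1.19e-05). *Cdkn1a*, the cell cycle inhibitor p21, had 5008, 4769, 4472 and 4479 normalized counts without treatment and 9799, 10375, 10835 and 8294 at 4 h (log2 fold change 1.07 ± 0.079, edgeR adjusted p = 6.6e-08). Of 16 genes of the NF-kB family and its inhibitors, 7 rose and 6 fell. *Tnfaip3* (A20) and *Nfkbiz* fell by 0.83 and 1.00 on the log2 scale. *Nfkbia* and *Tnip1* of this list also fell, while *Nfkbid*, *Zc3h12a*, *Nfkbie* and *Bcl3* rose. The survival factor *Bcl2l1* (BCL-XL) fell from 1622 ± 255 to 793 ± 185 (log2 fold change -1.03 ± 0.16, edgeR adjusted p = 0.000121). Of 195 solute carriers, 50 rose and 51 fell, and next to the rise of *Slc15a3* its relative *Slc15a4* fell from 2377 ± 132 to 689 ± 28.1 (log2 fold change -1.79 ± 0.055, edgeR adjusted p = 1.73e-11).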
